A study of Mus musculus with 25 samples.

Results

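Calcium cycling in the cardiomyocyte was followed in the mRNA of 10 genes, Ryr2, Trdn, Jph2, Casq2, Hrc, Atp2a2, Pln, Sri, Slc8a1 and Camk2d. They were named by their known role, though with earlier results of these data known. The value of each gene is the sum of its transcripts' TPM (a share of all transcripts of the library, already divided by transcript length). Each transcript was assigned to a gene by GENCODE mouse M21. All 10 were found among the 35969 genes with annotated transcripts, and all 10 were among the 11984 genes tested, which had a mean of at least 1 scaled TPM over the 25 mice. Scaled TPM is the TPM divided by a median-ratio factor per library.

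The study asked how a high fat high sucrose diet (HFHS), partial loss of the lipid peroxidase GPx4 and the dipeptide carnosine act on the obese heart. Male GPx4+/- mice, kept by backcrossing to C57BL6/J, and their wild-type (WT) littermates entered at 8 to 10 weeks of age and ate CNTL (6% of energy from fat) or HFHS (35.5% from fat that was mostly lard and 38% from sucrose, with added cholesterol) for 16 weeks. A further WT HFHS group drank 80 mM carnosine from week 7, so there are 5 groups of 5 mice each, namely WT CNTL and GPx4+/- CNTL on the control diet, WT HFHS and GPx4+/- HFHS on the rich diet, and WT HFHS + Carnosine, and no promoter restricted to cardiomyocytes is named for the Gpx4 allele. All mice were fasted and then injected with dextrose or saline before the left ventricle was taken, and which mouse got which injection is not in the labels. Polyadenylated RNA of bulk tissue was sequenced, so fewer cardiomyocytes and less of an mRNA per cardiomyocyte cannot be told apart.

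With each beat, calcium that enters through L-type channels opens the ryanodine receptor Ryr2 in the facing membrane of the sarcoplasmic reticulum, and the released calcium drives contraction. Triadin (Trdn), junctophilin 2 (Jph2), calsequestrin 2 (Casq2) and the histidine-rich calcium binding protein (Hrc) hold the release unit together and buffer its store. Relaxation follows as the SERCA2 pump (Atp2a2), held back by phospholamban (Pln), returns calcium to the store and the sodium-calcium exchanger (Slc8a1) carries the rest out of the cell, while CaMKII delta (Camk2d) phosphorylates several of these proteins and sorcin (Sri) binds the release channel.

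The shortest coding sequence of the 10 genes is that of Pln, whose 6 annotated transcripts all hold the same 52 codons. It is printed because the serine codon 16 (the protein kinase A site) and the threonine codon 17 (the CaMKII site), shown in capitals, are where the brake on the pump is released. The sequence was read from the GENCODE M21 transcript Pln-201 (GRCm38, chr10:53343864-53344022, plus strand).
Pln coding sequence: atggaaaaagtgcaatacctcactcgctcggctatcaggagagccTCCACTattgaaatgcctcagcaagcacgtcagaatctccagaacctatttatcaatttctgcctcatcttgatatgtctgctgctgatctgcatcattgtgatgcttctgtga

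Atp2a2 makes a 998-codon pump, SERCA2a, which is the form of heart muscle, and a 1044-codon pump, SERCA2b, which is the form of most other cells. Their coding sequences are identical over 2983 bases and then part, which lets the transcripts be told apart. Both ends are printed from the last 21 shared bases to the stop codon, with the bases that are not shared in capitals (GRCm38, minus strand, reading from chr5:122454291-122457323 for the first and chr5:122457151-122457323 for the second, the first across an intron).
Atp2a2-202 end: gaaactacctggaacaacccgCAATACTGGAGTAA
Atp2a2-201 end: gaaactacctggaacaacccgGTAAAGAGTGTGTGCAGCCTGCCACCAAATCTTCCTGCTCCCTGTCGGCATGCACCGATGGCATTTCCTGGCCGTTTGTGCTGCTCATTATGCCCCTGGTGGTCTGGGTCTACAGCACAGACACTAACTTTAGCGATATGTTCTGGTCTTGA

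Camk2d varies in the linker that follows its kinase domain. The main coding transcripts join different exons to the same preceding bases, and these exons are printed in capitals between 9 flanking coding bases on each side. The 33-base exon (chr3:126802937-126802969, GRCm38, plus strand) encodes a run of basic residues known as the nuclear localization signal of the delta-B form, and the 60-base exon (chr3:126805857-126805916) and the 42-base exon (chr3:126808208-126808249) are alternatives to it.
Camk2d 33-base exon: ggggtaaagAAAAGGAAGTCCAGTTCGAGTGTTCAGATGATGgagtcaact
Camk2d 60-base exon: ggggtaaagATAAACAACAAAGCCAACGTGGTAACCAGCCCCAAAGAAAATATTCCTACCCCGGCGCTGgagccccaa
Camk2d 42-base exon: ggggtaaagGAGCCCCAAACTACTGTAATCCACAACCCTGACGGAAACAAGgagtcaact

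Gpx4 itself lay between 590.7 and 777.7 scaled TPM in the 15 WT mice and between 250.5 and 382.8 in the 10 GPx4+/- mice, with no overlap. Pln and Trdn lie on chromosome 10 with Gpx4, at 26.7 and 46.6 Mb from it. All 8 cardiomyocyte markers listed (Myh6, Actc1, Tnnt2, Tnni3, Myl2, Myl3, Actn2 and Ttn) were high in all libraries, with Myl2 at 10410 scaled TPM or more. As a set they are not particular to the ventricle. The 6 libraries that stand apart through genes of other tissues are WT CNTL 3, WT HFHS 4, WT HFHS + Carnosine 2, both GPx4+/- CNTL 1 and 2, and GPx4+/- HFHS 4. The summed level of the 6 atrial markers ran from 145.5 to 4669 in WT CNTL, from 162.8 to 7478 in GPx4+/- CNTL, from 50.97 to 304.3 in WT HFHS, from 63.81 to 2771 in GPx4+/- HFHS and from 114 to 628.1 in WT HFHS + Carnosine. GPx4+/- CNTL 2 held hepatocyte mRNA (the 5 markers summed to 1003) and WT HFHS 4 the most smooth muscle mRNA (686.1). Mitochondrial transcripts took 31.3% to 48.7% of TPM. The paper gives an approximate read depth per sample, but TPM keeps no depth of the single libraries, so no counting error is given.

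**Figure D1:**
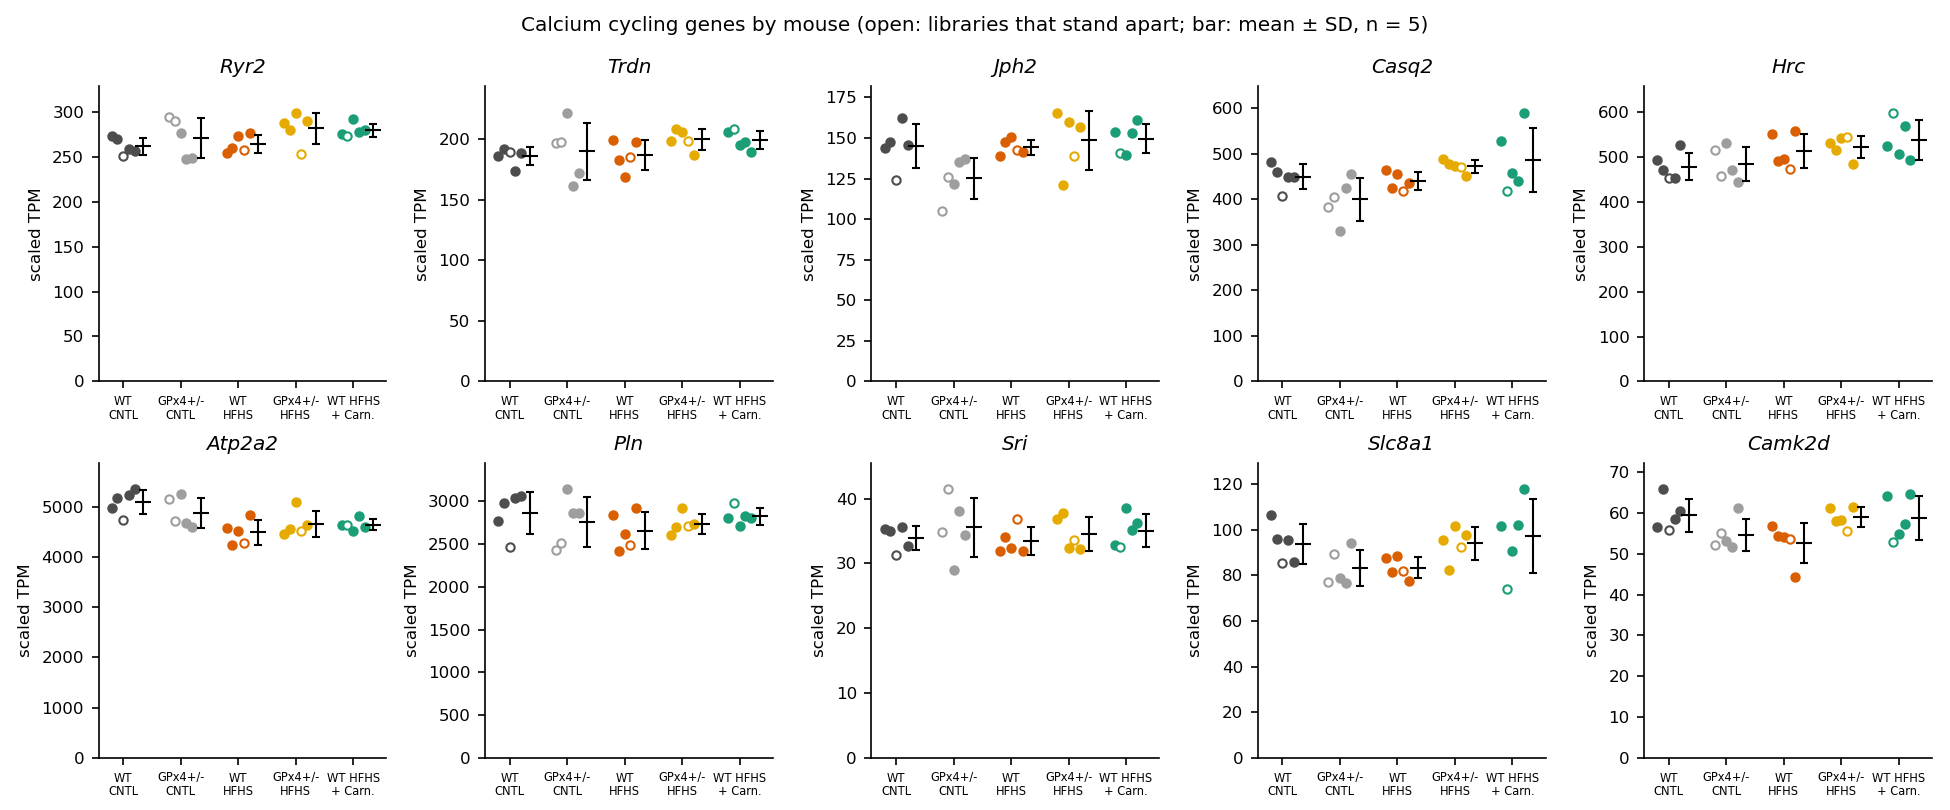
Scaled TPM (y axis, from 0) of each of the 10 genes in the 5 groups (x axis); each point is 1 mouse, open points are the 6 libraries that stand apart, and the bar beside the points is the mean ± SD of 5 mice. The groups with the highest and the lowest mean, picked by ordering the means, overlap in all panels but that of Jph2. There the GPx4+/- CNTL mice (105.2 to 137.1) lie below the mice of both WT HFHS groups (139.2 or more). The share of all genes with such a gap was not counted.

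The 10 genes kept a nearly fixed order of length-corrected level. In 22 of 25 libraries the order was Atp2a2, Pln, Hrc, Casq2, Ryr2, Trdn, Jph2, Slc8a1, Camk2d and Sri, and the 3 exceptions swapped Casq2 and Hrc only. Atp2a2 (ENSMUSG00000029467.15, chromosome 5, from 122453513 to 122502225 of GRCm38) averaged 4751 scaled TPM over the 25 mice and ranked 25 among the 11984 genes, and Pln (ENSMUSG00000038583.13, chromosome 10, from 53337667 to 53345987) averaged 2769 and ranked 31. The mean of Atp2a2 was 138 times that of Sri.

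The proteins of the store and the release unit formed a middle tier. Hrc (chromosome 7, from 45335290 to 45338974) averaged 508.1 scaled TPM, Casq2 (chromosome 3, from 102086415 to 102146514) 449.5 and Ryr2 (chromosome 13, from 11553102 to 12106945) 271.6. Trdn (chromosome 10, from 33080554 to 33476709) averaged 192.6 and Jph2 (chromosome 2, from 163336242 to 163397993) 142.5. The lowest levels were those of Slc8a1 (chromosome 17, from 81373105 to 81738377) at 90.33, Camk2d (chromosome 3, from 126596302 to 126846326) at 56.91 and Sri (chromosome 5, from 8046078 to 8069379) at 34.51.

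Mice of 1 group differed little in these genes. The SD within groups on the log2 scale was lowest for Atp2a2 (0.071) and Ryr2 (0.077) and highest for Slc8a1 (0.15), with a median of 0.109 over the 10 genes, beside 0.110 over the 2876 genes with a mean above 25 scaled TPM. From the lowest to the highest of the 25 mice, Ryr2 differed 1.21-fold and Casq2 1.78-fold, the smallest and largest spans of the 10.

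With the 5 groups of each gene ordered by mean, neighbours mostly lay within the replicate spread. Of 40 neighbouring pairs (10 genes, 4 steps each), 39 had overlapping values and 38 differed by less than the larger SD. The exceptions in size were Slc8a1, where WT CNTL (93.79 ± 8.59, SD, n = 5 mice) lay 10.4 above WT HFHS (83.43 ± 4.64, SD, n = 5), and Jph2, where WT HFHS (144.2 ± 4.8, SD, n = 5) lay 19.1 above GPx4+/- CNTL (125.1 ± 12.8, SD, n = 5), the only neighbours without overlap. The highest and the lowest group differed by more than the larger SD in 7 of the 10 genes (Ryr2, Atp2a2, Casq2, Camk2d, Trdn, Jph2 and Hrc), and their values overlapped in all genes but Jph2. Ordering by mean sets neighbours close and the ends apart by construction. These counts were not made over all genes, so they are given as a description. The highest group mean was that of WT HFHS + Carnosine for 4 genes (Casq2, Slc8a1, Jph2 and Hrc), WT CNTL for 3 (Atp2a2, Pln and Camk2d), GPx4+/- HFHS for Ryr2 and Trdn and GPx4+/- CNTL for Sri.

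Groups were compared on log2(scaled TPM + 0.5) with limma, with Benjamini-Hochberg adjusted p-values across the 11984 genes, and a gene is called below when its adjusted p is under 0.05. The comparisons are not independent of each other: diet in WT, genotype on HFHS and carnosine share the WT HFHS mice, and each other group without carnosine enters a diet and a genotype comparison.

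In WT mice the pump and the exchanger had lower means on HFHS, and no gene of the 10 was called. On CNTL, Atp2a2 stood at 4969, 5166, 4741, 5233 and 5345 scaled TPM in replicates 1 to 5, and on HFHS at 4576, 4240, 4517, 4275 and 4828. The ranges overlapped only through WT CNTL 3, the lowest CNTL mouse, and WT HFHS 5, the highest HFHS mouse. The log2 fold change of Atp2a2 was -0.18 (standard error 0.056, limma unadjusted p = 0.00407, adjusted p = 0.109), a level of 0.881 times that on CNTL, and with array weights it was called at an adjusted p of 0.0497. Leaving out the 6 libraries that stand apart, the difference was -0.19 (adjusted p = 0.167).

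For Slc8a1, the exchanger, the WT CNTL mice had 106.3, 95.97, 85.61, 95.38 and 85.73 scaled TPM and the WT HFHS mice 87.55, 81.69, 88.63, 81.91 and 77.37. The groups overlapped, and the log2 fold change was -0.17 (standard error 0.072, limma adjusted p = 0.258). Camk2d, the kinase, gave 56.54, 65.80, 55.79, 58.59 and 60.52 on CNTL and 56.80, 54.32, 54.20, 53.61 and 44.28 on HFHS. WT HFHS 5 was far below the other 4 mice of its group, and the log2 fold change was -0.18 over all (standard error 0.064, limma adjusted p = 0.175) and -0.12 without that mouse (limma adjusted p = 0.316).

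Among the genes of the release unit in WT mice, Ryr2 (0.01), Trdn (0.00), Jph2 (0.00) and Casq2 (-0.03) had log2 fold changes within 0.05 of 0, with 95% intervals of -0.10 to 0.13 for Ryr2 and -0.17 to 0.11 for Casq2, and Hrc had 0.10 (limma adjusted p = 0.428). Pln had -0.11 (interval -0.27 to 0.05) and Sri -0.02. Of the 10, 0 were called, beside 1.18% of all genes tested, and 3 (Atp2a2, Slc8a1 and Camk2d, all lower) had an unadjusted p under 0.05, beside 7.56% of all genes that were lower by that measure. The median log2 fold change was -0.026 over the 10 and 0.00 over all genes. With 1 mouse left out, the median of the 10 ran from -0.0599 (without WT CNTL 3) to -0.00595 (without WT CNTL 1), and it was -0.0679 without the 6 libraries. Smooth muscle markers (6 of 6 detected) summed to between 251.2 and 319.5 in WT CNTL and between 300.3 and 686.1 in WT HFHS, and the cardiomyocyte markers listed above to between 46170 and 53250 and between 42530 and 49720. Their part in the result was not tested.

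In GPx4+/- mice, Casq2, which encodes the calcium-binding store protein, was higher on HFHS. The GPx4+/- CNTL mice had 382.7, 404.0, 330.6, 425.1 and 455.7 scaled TPM and the GPx4+/- HFHS mice 488.9, 477.7, 472.3, 471.2 and 450.3, so that 1 CNTL mouse reached into the HFHS range. The log2 fold change was 0.25 (standard error 0.066, limma adjusted p = 0.046), a level of 1.19 times that on CNTL. It was the only gene of the 10 called in the fit of the 20 mice without carnosine, beside 3.34% of all genes tested. That call was lost in 23 of 32 alternative analyses, with the direction kept in all 32. With TPM as deposited its log2 fold change was 0.14 (limma adjusted p = 0.322), and with all 25 mice in 1 fit the adjusted p was 0.0936. Leaving out any 1 of 15 of the 20 mice ended it (adjusted p 0.0509 to 0.104), and so did leaving out the 6 libraries that stand apart (log2 fold change 0.24, adjusted p = 0.143).

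Jph2, which anchors the sarcoplasmic reticulum to the T-tubule, stood at 105.2, 126.2, 121.9, 135.2 and 137.1 scaled TPM in GPx4+/- CNTL and at 165.5, 121.3, 159.8, 139.2 and 156.7 in GPx4+/- HFHS. All HFHS mice but GPx4+/- HFHS 2 were above all CNTL mice, and the log2 fold change was 0.24 (standard error 0.084, limma adjusted p = 0.124). Without GPx4+/- HFHS 2, Jph2 was called, with a log2 fold change of 0.31 (limma adjusted p = 0.0352). Slc8a1 had 77.21, 89.53, 78.99, 76.59 and 94.19 on CNTL and 95.69, 82.55, 101.5, 92.63 and 97.54 on HFHS, a log2 fold change of 0.17 (standard error 0.072, limma adjusted p = 0.193). Camk2d had 52.18, 55.16, 53.22, 51.74 and 61.32 on CNTL and 61.34, 58.05, 58.22, 55.66 and 61.54 on HFHS. Its groups overlapped through GPx4+/- CNTL 5, with a log2 fold change of 0.11 (limma adjusted p = 0.393).

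The remaining genes had values close to those on CNTL. Atp2a2 had a log2 fold change of -0.07 (limma adjusted p = 0.571) in GPx4+/- mice, Pln one of -0.01, Ryr2 0.06, Trdn 0.08, Hrc 0.11 and Sri -0.03. The median was 0.094 over the 10 genes (0.0574 without GPx4+/- CNTL 4) and 0.00 over all genes. These signs depend on the scaling: with TPM as deposited, without scaling factors, the median of all genes moved to -0.10, that of the 10 to -0.013, and 5 of 10 were above 0 in place of 7, which stands beside 49.6% of all genes. In the same setting 8.73% of the genes called were higher on HFHS, beside 65.2% with scaling. Atrial markers (6 of 6 detected) summed to between 162.8 and 7478 in GPx4+/- CNTL and between 63.81 and 2771 in GPx4+/- HFHS, and their part in the result was not tested.

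Over both genotypes together, Atp2a2 came nearest to the threshold. Its log2 fold change was -0.13 (standard error 0.040, limma adjusted p = 0.0561), and it passed, lower on HFHS, in 9 of 31 alternatives, all of which kept the direction. These included a minimum of 5 scaled TPM, TPM as deposited, quantile normalization and leaving out WT CNTL 3 (adjusted p = 0.0374), WT HFHS 5 (0.0384) or GPx4+/- HFHS 3 (0.0336). Casq2 had 0.11 (adjusted p = 0.154), Hrc 0.11 (0.129) and Jph2 0.12 (0.220), and 0 of the 10 were called, beside 8.33% of all genes. Of the 10, 3 had an unadjusted p under 0.05 (Hrc and Casq2 higher, Atp2a2 lower), beside 24.5% of all genes.

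**Figure D2:**
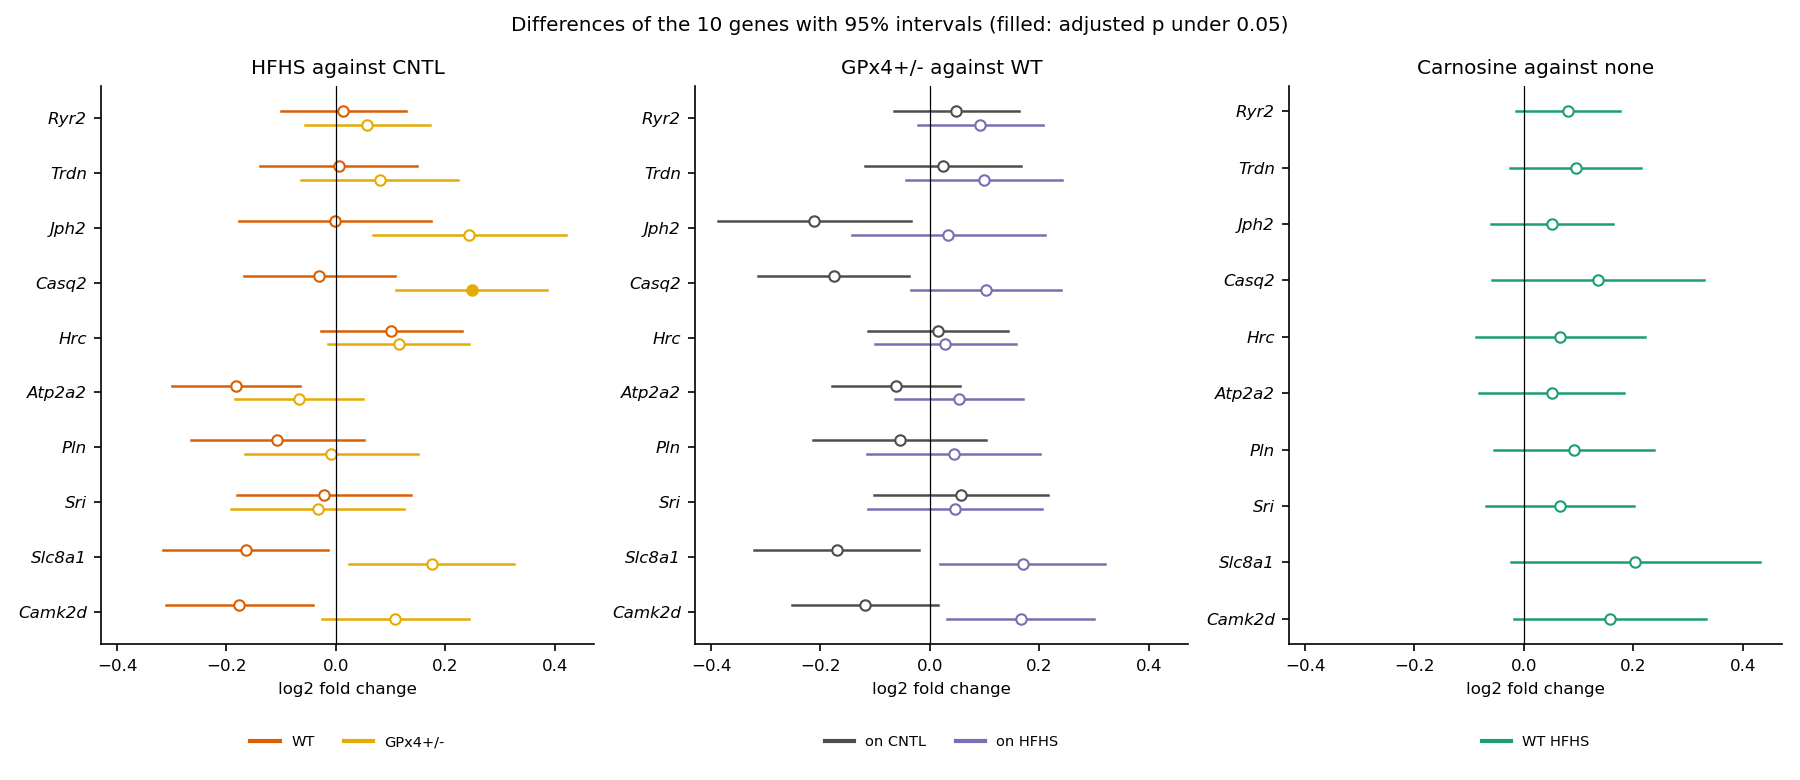
Log2 fold changes (x axis) of the 10 genes (y axis) with 95% intervals from limma, for HFHS against CNTL in each genotype, GPx4+/- against WT on each diet, and carnosine against none in WT HFHS mice. Filled points have an adjusted p under 0.05, which only Casq2 in GPx4+/- mice reached (0.25), while all 10 points lie above 0 for carnosine, from 0.05 to 0.20 (6 of 10 with TPM as deposited, where the median of all genes was -0.069).

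Whether the diet difference was the same in both genotypes was tested as the difference of the diet effects. In limma it was 0.34 on the log2 scale for Slc8a1 (95% interval 0.13 to 0.55), 0.285 for Camk2d (0.10 to 0.47), 0.28 for Casq2 (0.08 to 0.47) and 0.25 for Jph2 (-0.004 to 0.49), in each case higher in GPx4+/- mice. None of them passed the limma test over all genes, where the adjusted p was 0.651, 0.664, 0.681 and 0.691, and 0% of the 11984 genes did (856 at an unadjusted p under 0.05). Higher at an unadjusted p under 0.05 were 3 of the 10 and 3.65% of all genes, and above 0 were 9 of the 10 and 48.8% of all genes. For the other 6 genes the difference was between -0.01 (Sri) and 0.11 (Atp2a2). The median over the 10 was 0.107 and that over all genes 0.00, but with TPM as deposited they were 0.00 and -0.11, with 5 of 10 genes above 0 in place of 9.

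Between genotypes none of the 10 genes was called on either diet. On CNTL, 0 of 10 were called, beside 0.0501% of all genes, and Jph2 (-0.21, limma adjusted p = 0.750), Casq2 (-0.18, 0.729) and Slc8a1 (-0.17, 0.777) were the lower values in GPx4+/- mice with an unadjusted p under 0.05, beside 3.32% of all genes. On CNTL Casq2 had 482.4, 460.3, 407.5, 448.6 and 448.4 scaled TPM in WT, which overlaps the GPx4+/- CNTL values above. Jph2 had 144.1, 147.3, 124.4, 162.4 and 145.9 in WT CNTL, and only WT CNTL 3, a library that stands apart, reached into the GPx4+/- range. Leaving out the 6 libraries, the log2 fold changes on CNTL were -0.19 (adjusted p = 0.684) for Jph2 and -0.20 (adjusted p = 0.645) for Casq2, and without GPx4+/- CNTL 3 alone that of Casq2 was -0.11 (adjusted p = 0.992). With all mice 4 of 10 log2 fold changes were above 0, beside 50.2% of all genes, with a median of -0.059 over the 10 and 0.00 over all genes, and without the 6 libraries 0 of 10 were, with medians of -0.07 and 0.00. With 1 mouse left out the median of the 10 ran from -0.0975 (without WT CNTL 3) to -0.0362 (without GPx4+/- CNTL 2).

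On HFHS, 0 of 10 were called, beside 0.0501% of all genes, and all 10 log2 fold changes between GPx4+/- and WT were above 0, from 0.03 (Hrc) to 0.17 (Slc8a1), beside 48.9% of all genes above 0. Their median was 0.072, beside 0.00 over all genes. Slc8a1 (0.17, limma adjusted p = 0.978) and Camk2d (0.17, adjusted p = 0.978) had an unadjusted p under 0.05, beside 2.19% of all genes that were higher by that measure, and Camk2d was at 0.11 (adjusted p = 0.991) without WT HFHS 5. With TPM as deposited 5 of 10 were above 0, while the median moved to -0.073 over all genes and to -0.0023 over the 10. All 10 were above 0 without mitochondrial transcripts and with quantile normalization, and 9 of 10 were without the 6 libraries, without WT HFHS 4 and without GPx4+/- HFHS 1. Over both diets 0 of 10 were called, beside 0.0584% of all genes, and the log2 fold changes ran from -0.09 (Jph2) to 0.07 (Ryr2).

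With carnosine in WT HFHS mice none of the 10 genes was called, and 0% of the 11984 genes tested were called (505 at an unadjusted p under 0.05, 0 of them among the 10). Slc8a1 had the largest difference, with 101.5, 73.97, 90.53, 102.0 and 117.7 scaled TPM in WT HFHS + Carnosine beside 77.37 to 88.63 without it. All treated mice were above the untreated range except WT HFHS + Carnosine 2, a library that stands apart, which was below it, and the log2 fold change was 0.20 (95% interval -0.02 to 0.43, limma adjusted p = 0.947). Camk2d (0.16, interval -0.02 to 0.33) and Casq2 (0.14, interval -0.06 to 0.33) followed, the latter with 1 mouse, WT HFHS + Carnosine 5, at 589.8, the highest of all 25. Single mice moved these values, to 0.097 for Camk2d without WT HFHS 5, and to 0.063 for Casq2 and 0.13 for Slc8a1 without WT HFHS + Carnosine 5. Ryr2 had 0.08 (-0.01 to 0.18), Trdn 0.09, Pln 0.09, Hrc 0.07, Sri 0.07, Atp2a2 0.05 (-0.08 to 0.18) and Jph2 0.05. All 10 were above 0, beside 49.6% of all genes, with a median of 0.086 beside 0.00 over all genes, and 9 of 10 were without the 6 libraries. With TPM as deposited 6 of 10 were, while the median moved to -0.069 over all genes and to 0.013 over the 10, and all 10 were without mitochondrial transcripts and with quantile normalization.

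Phospholamban and its target were compared within each mouse, a measure that the library scaling does not change. The ratio of Pln to Atp2a2 TPM was 0.558, 0.578, 0.521, 0.580 and 0.572 in WT CNTL, 0.473, 0.532, 0.598, 0.612 and 0.621 in GPx4+/- CNTL and 0.620, 0.571, 0.580, 0.583 and 0.605 in WT HFHS. In GPx4+/- HFHS it was 0.585, 0.592, 0.573, 0.600 and 0.590, and in WT HFHS + Carnosine 0.604, 0.644, 0.600, 0.586 and 0.609. The 3 lowest ratios of the 25 were those of GPx4+/- CNTL 1, WT CNTL 3 and GPx4+/- CNTL 2, all libraries that stand apart, while GPx4+/- HFHS 4, which also does, was at 0.600. The highest of the 25, 0.644, was that of WT HFHS + Carnosine 2, which stands apart as well. The part of atrial mRNA in these ratios was not tested.

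In log2 terms the ratio was 0.08 higher on HFHS than on CNTL in WT (two-sided exact permutation p = 0.0556, adjusted over 5 comparisons 0.278) and 0.06 higher in GPx4+/- (exact permutation p = 0.5). The genotype difference was 0.01 on CNTL (exact permutation p = 0.952) and -0.01 on HFHS (exact permutation p = 0.746), and that with carnosine 0.04 (exact permutation p = 0.246). The smallest p that 5 mice against 5 allow is 0.00794. Without the 6 libraries the diet difference in GPx4+/- turned to -0.06 and the genotype difference on CNTL was 0.09. The SD of the log2 ratio was 0.168 in GPx4+/- CNTL and at most 0.064 in the other groups.

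**Figure D3:**
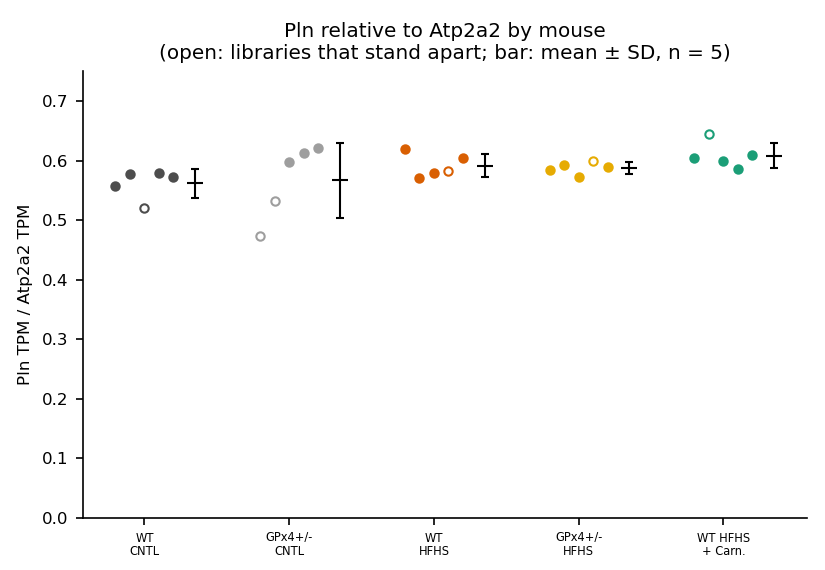
Ratio of Pln to Atp2a2 TPM (y axis, from 0) by mouse in the 5 groups (x axis), with open points for the 6 libraries that stand apart and the mean ± SD of 5 mice beside the points. Group means lie between 0.562 (WT CNTL) and 0.609 (WT HFHS + Carnosine), and the lowest points and the highest point are open.

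The heart form of the pump made up nearly all of Atp2a2. The transcript Atp2a2-202, with the 998-codon coding sequence whose end is printed above, took 97.7% of the gene's TPM on average and never under 97.2%, and the 1044-codon form took 1.76% to 2.66% of both forms in the 25 mice. Its group means were 2.19% ± 0.259 (SD, n = 5) in WT CNTL, 2.21% ± 0.293 (SD, n = 5) in WT HFHS and 2.01% ± 0.160 (SD, n = 5) with carnosine, differences within the spread.

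Camk2d was spread over several forms. Camk2d-202 (25.1%), Camk2d-221 (21.2%) and Camk2d-205 (16.8%) were the main coding transcripts, and the retained-intron transcripts Camk2d-223 and Camk2d-218 took 13.0% and 12.5%. Among the transcripts with a complete coding sequence, the 42-base exon was in 73.1% of the TPM on average, the 60-base exon in 35.1% and the 33-base exon of the nuclear form in 25.3% (20.0% to 30.9% over the 25 mice), and a transcript can hold the 42-base exon beside the 60-base exon. The share with the 33-base exon was 25.1% ± 3.57 (SD, n = 5) in WT CNTL, 26.3% ± 3.28 (SD, n = 5) in WT HFHS and 24.3% ± 4.56 (SD, n = 5) in GPx4+/- HFHS, again within the spread.

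Several other genes had 1 dominant coding transcript, namely Hrc-201 (99.8%), Jph2-201 (96.6%) and Casq2-201 (92.8%). Ryr2-201, with 4966 codons, took 65.8% of Ryr2, and the fragments Ryr2-207 (24.5%) and Ryr2-204 (5.30%), whose annotated coding sequences are incomplete, took most of the rest. Slc8a1 was split over Slc8a1-202 (48.9%), Slc8a1-206 (22.7%), Slc8a1-204 (18.8%) and Slc8a1-201 (8.75%), and Trdn over Trdn-202 (38.2%), Trdn-206 (28.9%), Trdn-201 (9.09%), Trdn-204 (8.81%), Trdn-203 (7.14%) and Trdn-208 (6.22%). For Sri, 69.7% of TPM fell on the retained-intron transcript Sri-201 and 20.7% on the coding transcript Sri-205. How TPM is divided among transcripts that share exons is an estimate of the quantification, and its error is not in the deposited values.

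**Figure D4:**
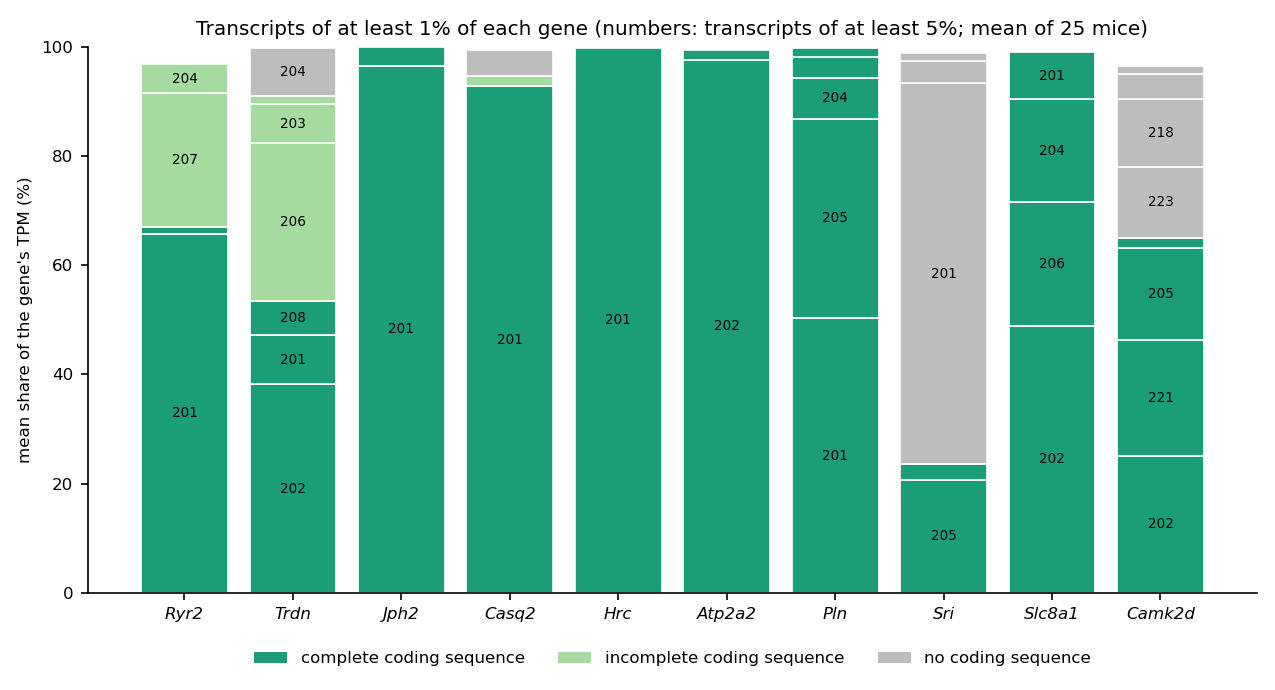
Mean share over 25 mice of each gene's TPM (y axis, percent) by transcript for the 10 genes (x axis); colours mark whether the annotation gives a complete, an incomplete or no coding sequence, numbers name transcripts of at least 5%, and transcripts under 1% are left out. Atp2a2, Hrc, Jph2 and Casq2 consist mostly of 1 coding transcript, while most of Sri (69.7%) is a retained-intron transcript.

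All Pln transcripts carry the coding sequence printed above and differ outside it. Pln-201 took 50.3%, Pln-205 36.6% and Pln-204 7.43% of the gene. Pln-204 stood at 237.1 ± 22.0 (SD, n = 5) scaled TPM in GPx4+/- CNTL, with values from 210.6 to 264.8, and at 185.6 ± 11.2 (SD, n = 5) in GPx4+/- HFHS, from 174.8 to 199.4, without overlap. The share of all transcripts without overlap was not counted. Tested over 23328 single transcripts, Pln-204 was lower on HFHS in GPx4+/- (log2 fold change -0.35, limma adjusted p = 0.0436, beside 0.926% of transcripts called) and over both genotypes (-0.25, adjusted p = 0.0195, beside 3.04%), as was Pln-202, a transcript of 1.64% of the gene, over both genotypes (-0.41, adjusted p = 0.0366). These were the 3 calls among transcripts of the 10 genes in all 8 comparisons. None of the 3 was called with the replicate number as a block.

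A wider list of 73 calcium handling genes, of which 69 were tested, set the 10 in context. It holds L-type channel subunits, partners of the release channel, junction proteins, small pump regulators, kinases and phosphatases, sarcolemmal transport, mitochondrial calcium transport and store-operated entry. Cacna1d, Fkbp1b and Atp2a1 were below the level tested, and Strit1 was not matched in the annotation.

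In WT mice 0 of 69 were called on HFHS, beside 1.18% of all genes, and the smallest p-values were those of Atp2a3, a SERCA3 pump (log2 fold change 0.43, limma adjusted p = 0.0547), Calm3, a calmodulin gene (0.15, 0.0579), and Bin1, which shapes T-tubules (0.40, 0.0579). WT HFHS 4 and 2, of which the former stands apart, had the highest Bin1 of the group. In GPx4+/- mice 5 of 69 were called, all higher on HFHS, beside 3.34% of all genes called in either direction. Among them were the store protein sarcalumenin, Srl (0.31, limma adjusted p = 0.00304), Calm3 (0.22, 0.00546), Asph, whose products include junctin and junctate (0.37, 0.0078), and Camk2b (0.35, 0.015). The Asph value sums all its transcripts and does not tell which product differed. The median over the list was 0.045 in GPx4+/- and 0.024 in WT, beside 0.00 over all genes in both.

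Srl had 390.2, 433.6, 380.4, 400.9 and 404.7 scaled TPM in GPx4+/- CNTL and 528.6, 497.7, 490.0, 485.6 and 483.2 in GPx4+/- HFHS, without overlap. Asph had 76.70, 87.20, 71.56, 86.99 and 93.02 on CNTL and 108.0, 117.1, 100.8, 101.0 and 109.2 on HFHS, also without overlap. Of the 69 genes, 6 were higher and 1 lower on HFHS without overlap in GPx4+/- mice, beside 2.53% and 1.94% of all genes. With TPM as deposited none of these 5 was called, and 3 other genes of the list were, all lower. Without the 6 libraries Srl (limma adjusted p = 0.0116) and Asph (0.0385) were called, while Calm3 (0.0508) and Camk2b (0.0674) were not.

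Over both genotypes 10 of 69 were called, 8 higher and 2 lower, beside 8.33% of all genes. Among those higher on HFHS were Calm3 (0.19, limma adjusted p = 0.00038), Srl (0.19, 0.00253), Tmem38b, the potassium channel TRIC-B of the store (0.33, 0.00493), Camk2b (0.23, 0.0106), Mrln, a small pump inhibitor better known from skeletal muscle (0.71, 0.0118), and Asph (0.20, 0.0179). Among the lower genes was Ppp1ca, a catalytic subunit of protein phosphatase 1 (-0.13, 0.0124). Mrln was low in all mice, from 0.307 to 1.59 scaled TPM in WT CNTL and 1.61 to 2.78 in WT HFHS. Atp2a3 (0.28, 0.0243) was also higher, and it lies outside the rule for named genes and is named after its values were seen. Without the 6 libraries Camk2b (limma adjusted p = 0.0507), Mrln (0.053), Asph (0.0834) and Atp2a3 (0.127) were not called. With TPM as deposited Calm3 (limma adjusted p = 0.0907), Srl (0.102), Asph (0.108), Camk2b (0.145) and Atp2a3 (0.168) were not, so that of the genes named here Tmem38b and Ppp1ca were called in both settings.

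**Figure D5:**
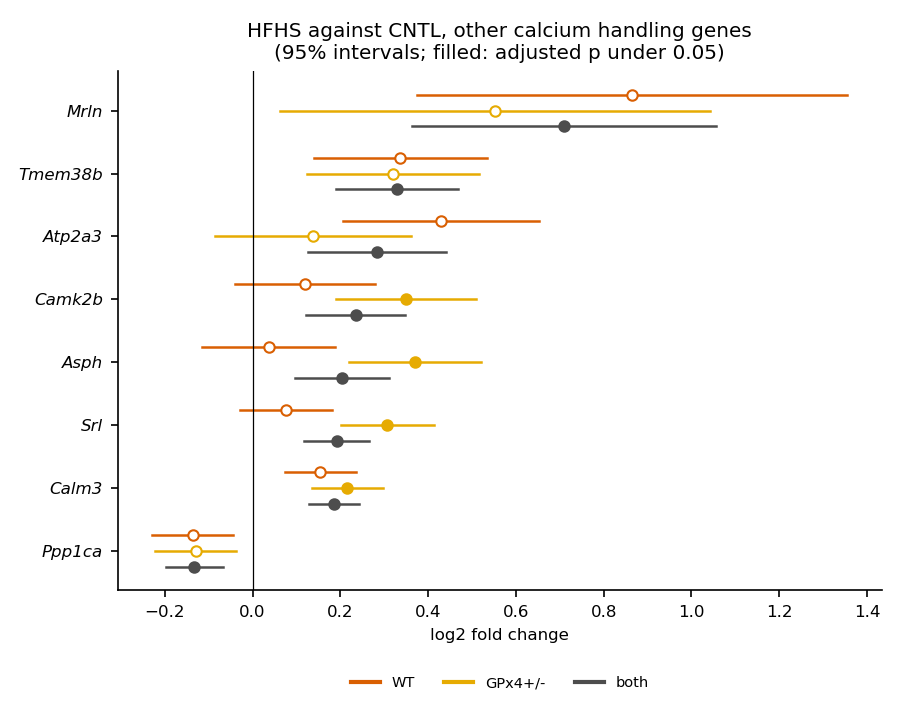
Log2 fold changes on HFHS against CNTL (x axis) with 95% intervals from limma for 8 genes of the wider list called in GPx4+/- mice or over both genotypes (y axis), in WT, in GPx4+/- and over both. Filled points have an adjusted p under 0.05; Ppp1ca lies below 0 in both genotypes, and Mrln has the largest value (0.71 over both) and a wide interval.

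For genotype and carnosine no gene of the wider list was called. On CNTL Asph (-0.21) and Bin1 (0.27) were among the genes with the smallest p-values, with an adjusted p of 0.729 each, and on HFHS the smallest adjusted p was 0.978. With carnosine Itpr3, an inositol trisphosphate receptor (-0.36), and Prkar2a, a regulatory subunit of protein kinase A (0.14), were among them, each with an adjusted p of 0.947. Sln, the small pump inhibitor of atrial muscle, reached 198.9 scaled TPM in GPx4+/- CNTL 1, 156.8 in WT CNTL 3, 83.94 in GPx4+/- HFHS 4, 38.29 in GPx4+/- CNTL 2, 25.59 in WT HFHS + Carnosine 2 and 11.26 in WT HFHS 1, and was below 1 in the other 19 mice.

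Between mice of 1 group, the 10 genes moved together only in part. Deviations from group means were correlated over the 25 mice for all 45 pairs, with p-values from 100000 permutations within groups and adjusted over the 45. Slc8a1 went with Camk2d (Pearson r = 0.624, adjusted permutation p = 0.0303; Spearman rho = 0.590, adjusted 0.0463) and with Jph2 (r = 0.574, adjusted permutation p = 0.0303; rho = 0.558, adjusted 0.0535). Atp2a2 went with Hrc (r = 0.639, adjusted permutation p = 0.0303; rho = 0.610, adjusted 0.0463). Without the 2 mice farthest from the median these r were 0.511, 0.597 and 0.609. The highest r, of Casq2 with Slc8a1, was 0.669 (adjusted permutation p = 0.0523; rho = 0.592, adjusted 0.0517) and Atp2a2 with Pln had 0.607 (adjusted 0.0709 by permutation; rho = 0.650, adjusted 0.0463). Trdn with Hrc (rho = 0.614) and Camk2d with Jph2 (rho = 0.554) also passed by Spearman rank only (adjusted permutation p = 0.0463 each). Trdn moved against Jph2 (r = -0.501, adjusted permutation p = 0.0879; rho = -0.615, adjusted 0.0463), with r = -0.543 without the 2 mice farthest from the median and r = -0.526 without the 6 libraries.

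The genes whose deviations were most like the mean of the 10 were Tmlhe, which makes the first enzyme of carnitine synthesis (r = 0.808), the splicing factor Cdc40 (0.748), Ralgapa1 (0.745), Lsm12 (0.726) and Bbof1 (0.720), over 25 mice with group means removed. Without the 6 libraries these r were 0.686, 0.679, 0.456, 0.654 and 0.540 over 19 mice. All values of a library share its scaling factor, and the 5 genes were the highest of all tested, so the r are given as a description.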

How the data were processed

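Polyadenylated RNA of left ventricles of 25 mice in 5 groups was sequenced as paired reads. The authors deposited TPM per transcript, normalized to the same total in each library, and the submitters' processing notes name kallisto 0.43.1, sleuth 0.30.0 and the build GRCm38. The paper's methods instead describe STAR, for which they name a numbered release of GRCm38, and gene counts in Partek. The step that made the TPM is therefore taken from the notes, and the transcript set given to kallisto is not given in the sources used here. Columns were matched to mice by the library names of the header, which differ from the column positions in the sample descriptions. Of 119215 transcripts listed, 116772 were matched to GENCODE M21 and summed by gene, and 2443 were not. TPM was divided by median-ratio factors over 11879 genes.

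TPM are not counts and keep no depth, so limma 3.58.1 (R 4.3.3, eBayes with trend) was used on log2(scaled TPM + 0.5) for 11984 genes with a mean of at least 1, a scale that understates the change of low genes. The 20 mice without carnosine entered 1 fit for diet and genotype, and the 10 WT HFHS mice another for carnosine. Benjamini-Hochberg adjustment was made over all genes tested. Ratios were compared by exact permutation and pairs of genes by 100000 permutations (scipy 1.17.1). Mice are separate animals. Scripts were tested on simulated data.

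The members, the wider list, the marker lists and the 6 libraries that stand apart were chosen with earlier results of these data known. Named were the 10 members, up to 8 called genes of the wider list per comparison by smallest p (or the 3 smallest where none was called), member transcripts of at least 5% of a gene or called, and the 5 genes most like the members. Alternatives changed the pseudocount, the filter on low values, the scaling, the samples and covariates of the fit, or left out mice. Some genes of the wider list that this rule names are not reported here, though they stay in its counts.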

Additional observations from a re-analysis of the deposited data

Results flagged for a closer look

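Camk2d in WT HFHS 5 lay apart from its group, at 44.28 scaled TPM, while the other mice of that group were between 53.61 and 56.8. The gap to the next mouse was 0.745 of the range of the group, above Dixon's critical value of 0.71 for 5 samples. It was the only such value among 75 groups of values examined, and chance alone marks about 1 in 20 groups.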

How the results depend on the processing

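The direction of the log2 fold changes of Casq2, Atp2a2 and the called genes of the wider list was kept under all alternatives run, but calls near the threshold were not. Among the 10 genes, the 1 call for diet in GPx4+/- mice (Casq2) became 0 without a filter, with TPM as deposited, without mitochondrial transcripts, with array weights, with all 25 mice, with only the 2 groups compared and without the 6 libraries. Leaving out single mice gave 0 to 1, where the 1 without GPx4+/- HFHS 2 was Jph2 (adjusted p = 0.0352) and not Casq2 (0.0743). Over both genotypes the 0 calls became 1 (Atp2a2) with a minimum of 5 scaled TPM, TPM as deposited, no mitochondrial transcripts, quantile normalization, all 25 mice and a length slope, and leaving out single mice gave 0 to 1. In WT mice array weights gave 1. In the wider list, the 0 calls in WT mice became 1 without mitochondrial transcripts, 2 with quantile normalization or all 25 mice, 6 with array weights and 4 with a length slope, and 0 to 4 with single mice left out. In GPx4+/- mice, where it had 5 calls (all higher), there were 3 with TPM as deposited (all lower), 3 without the 6 libraries (2 higher, 1 lower) and 2 with only the 2 groups compared (both higher). Over both, where it had 10, there were 5 with TPM as deposited (2 higher, 3 lower) and 5 without the 6 libraries (3 higher, 2 lower). The 3 transcript calls became 5 with TPM as deposited. With TPM as deposited the share of called genes that were higher on HFHS fell from 56.2% to 20.1% over both genotypes. Apart from the construction of each alternative, the cause was not tested.

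The Pln to Atp2a2 ratio, which passed the permutation test in no comparison, turned for diet in GPx4+/- mice without the 6 libraries (log2 difference -0.0612). With single mice left out it ran from -0.004223 to 0.09449 there, from -0.02791 to 0.0708 for genotype on CNTL and from -0.0215 to 0.007975 for genotype on HFHS.

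Mice with the same replicate number did not deviate together (correlations of -0.341 to 0.234), so the numbers share only a name. With the replicate number as a block (replicate block), 0 of the 10 genes were called for diet in GPx4+/- mice, where Casq2 had an adjusted p of 0.0618, and 0 of the 3 transcripts were. The paper gives only an approximate read depth per sample, and its limit on low genes such as Mrln was not worked out.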
